A study of Mus musculus with 20 samples.

Results

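The comparison described here sets pancreas of mice lacking miR146a (KO) against pancreas of wild-type mice (WT), both after cerulein. It rests on 9 of the 20 libraries of the series, 5 KO and 4 WT, chosen by genotype and treatment in the sample titles. The mice were littermates of 6 to 8 weeks. All of them received 7 intraperitoneal injections of cerulein at 50 µg/kg, 1 every hour, and pancreas was taken 1 h after the last injection. Controls of the series received phosphate-buffered saline (PBS) on the same schedule. Their 10 libraries were used to find the genes that respond to cerulein and to show and test 4 genes without cerulein. They also entered a test of interaction, an alternative fit to all libraries with counts and a comparison of spread. The fifth WT cerulein library, replicate 2, held 0 in every row and was left out. The labels name neither sex nor litter, nor how the KO allele was made.

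Cerulein is an analogue of cholecystokinin. Given in excess, it makes acinar cells, the enzyme-secreting cells of the pancreas, retain and activate their digestive enzymes, and acute pancreatitis follows. miR-146a is induced by NF-kB and represses adaptor kinases and ligases of the Toll-like and interleukin-1 receptor pathways, among them Irak1 and Traf6, so it acts as a brake on the signal that induces it. A microRNA pairs with its targets mainly through its seed, bases 2 to 8. The strands below, from RefSeq (build GRCm38.p6), are shown because the KO mice lack the first and the last while the middle one shares the seed of the first; the seed is in capitals, read 5′ to 3′.
mmu-miR-146a-5p: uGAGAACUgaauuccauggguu
mmu-miR-146b-5p: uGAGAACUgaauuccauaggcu
mmu-miR-146a-3p: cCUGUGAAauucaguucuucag
The 5p and 3p strands of miR-146a lie on the minus strand of chromosome 11, at chr11:43374435-43374456 and chr11:43374399-43374420 of that build, in the microRNA gene Mir146. Among the 1738 mature mouse entries of the table, only miR-146b-5p (chr19:46342790-46342811, plus strand, gene Mir146b) has the same seed. It differs from miR-146a-5p at G18A and U21C, counted from the 5′ end of miR-146a-5p. The libraries were made from polyadenylated RNA and the deposited rows have no names, so the level of neither microRNA was analysed here.

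The rows of the deposited count table carry neither identifiers nor symbols. A gene is named here by its row number below the header, starting at 1, and the rest are described in groups, by their response to cerulein and by their abundance. Genes of the NF-kB and inflammasome pathways, and the markers of acinar, immune or other cells by which the tissue could be checked, were not analysed here. In whole tissue, fewer cells of a type and less RNA per cell cannot be told apart.

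The 9 libraries held 4880131 to 35155403 counts. KO replicates 1 and 4 stood apart from the other 7 libraries. Their Spearman correlation with each other over log2 CPM (counts scaled to a common library size) was 0.973, while either of them reached 0.837 to 0.892 with any other library. The 21 pairs among the other 7 libraries lay between 0.896 and 0.959, and those between genotypes averaged 0.925 (12 pairs), against 0.933 within KO (3 pairs) and 0.917 within WT (6 pairs). These 2 KO libraries also held rows that the rest did not. With every library thinned at random to 4880131 counts, 759 rows had a count in both KO 1 and KO 4 and in none of the other 7; for the 35 other pairs of libraries the number was 9 to 165, with a median of 35. They are the deepest libraries of the 9, at 23746372 and 35155403 counts. Thinning made the total counts equal, but not the depth of a typical gene. The scaling factors (TMM) were 1.352 in KO 1 and 1.407 in KO 4, and 0.793 to 1.095 in the other 7. At equal totals, a higher factor means more counts for a typical gene. Whether this accounts for the 759 rows was not tested. Because KO 1 and KO 4 stood apart, results are given with and without them. Whether they hold tissue of another composition was not tested.

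**Figure D1:**
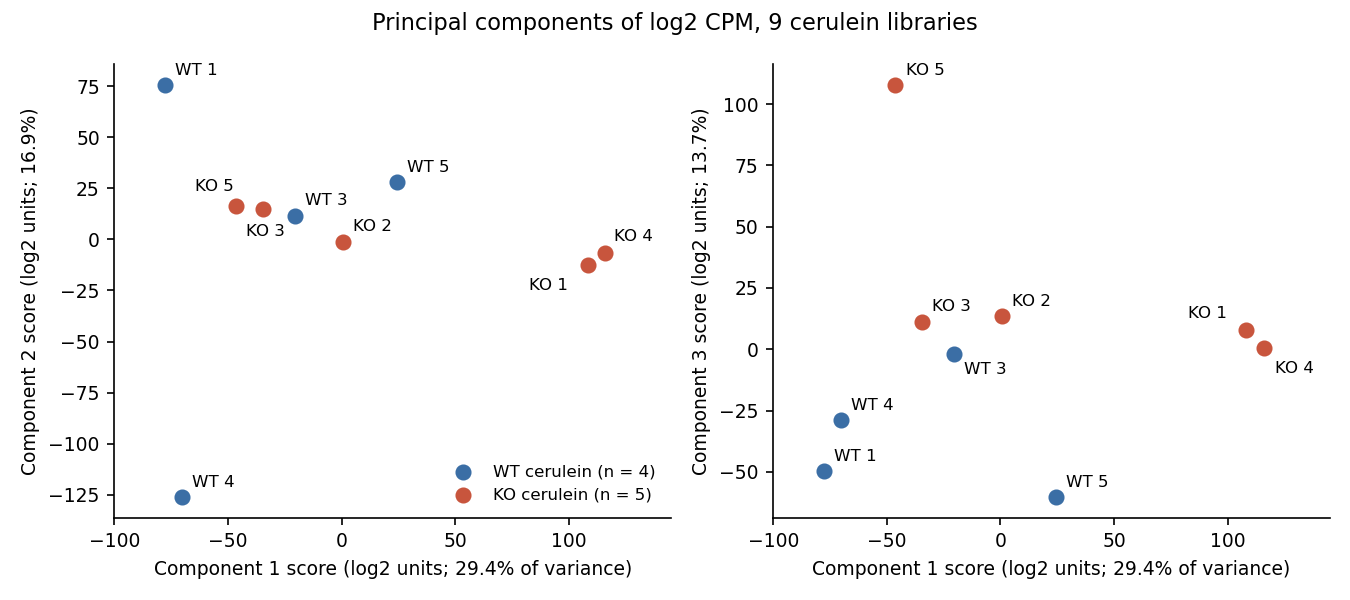
Scores of the 9 cerulein libraries on components 1 and 2 (left) and 1 and 3 (right) of log2 CPM over the tested genes; each point is 1 library, WT blue and KO red, with its replicate number. KO 1 and KO 4, at 108 and 116, lie to the right of the other 7 on component 1, while the genotypes do not overlap on component 3.

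The first component of log2 CPM, with 29.4% of the variance, separated KO 1 and KO 4 (scores 108 and 116) from the rest (-77.8 to 24.4), so the genotypes overlapped on it (exact two-sided permutation p = 0.206, adjusted over 3 components 0.310). They overlapped on the second as well (exact permutation p = 0.857, adjusted 0.857). On the third, with 13.7% of the variance, every KO library scored above every WT library (exact permutation p = 0.0159, the smallest that 126 splits give two-sided, adjusted 0.0476). The gap there was narrow, from -1.78 in WT 3 to 0.604 in KO 4, and KO 5 stood far out at 108. When the components were recomputed without each library in turn, 1 of the first 3 components had no overlap of genotypes in 7 of 9 cases; none did without WT 5 or without KO 5. With 8 libraries, a component that alone separates the genotypes cannot pass after adjustment.

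More rows were detected in KO libraries on average, but the genotypes overlapped. With total counts made equal by thinning, WT replicates 1, 3, 4 and 5 had a count in 15099, 16988, 15069 and 15841 rows. KO replicates 1 to 5 had one in 21119, 16871, 16545, 18952 and 15698. Only KO 1 and KO 4 lay above all WT libraries. KO 1 and KO 4 also had the highest scaling factors, so a typical gene was not at equal depth in them. The means were 17837 ± 2190 (SD, n = 5) in KO and 15749 ± 900 (SD, n = 4) in WT, a difference of 2088 rows (exact permutation p = 0.111). For KO 2, 3 and 5 alone the mean was 16371 ± 605 (SD, n = 3) and the difference 622 rows (exact permutation p = 0.400; the smallest that 35 splits give two-sided is 0.0571).

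No gene passed the test between the genotypes after cerulein. Of 15081 genes tested by edgeR's quasi-likelihood test, 0 (0%) had a Benjamini-Hochberg adjusted p under 0.05, and the smallest adjusted p was 0.468. At an unadjusted p under 0.05 there were 928 genes (6.15%), where 754 would be reached with no difference at all. Of these, 677 (4.49%) were higher in KO and 251 (1.66%) lower. limma-voom called 0 genes too, with 1211 at an unadjusted p under 0.05. DESeq2 called 18, of which 15 were higher in KO. In 11 of the 18, KO 1 and KO 4 both lay above all 7 other libraries, an order whose share over all tested genes was not counted. Without KO 1 and KO 4, edgeR again called 0 of 14301 genes, the unadjusted number was 507, below the 715 reached with no difference, and DESeq2 called 3.

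The largest differences in the estimates pointed to higher levels in KO and moved with KO 1 and KO 4. Among genes with counts in both genotypes, the KO estimate was over 4-fold higher for 457 (3.03% of tested genes) and over 4-fold lower for 57 (0.378%). In 328 of the 457, KO 1 and KO 4 both lay above all 7 other libraries. The share of all tested genes in that order was not counted, and choosing by a high KO estimate favours such genes. Without KO 1 and KO 4, the numbers were 105 higher and 111 lower. The same imbalance was seen at an unadjusted p under 0.05: the median log2 difference was 1.34 in the 677 genes higher in KO and -0.77 in the 251 lower. KO 1 and KO 4 both lay above the other 3 KO libraries in 506 of these 677 genes, against 28.4% of all tested genes. With KO 1 and KO 4 left out, 92 of the 677 and 95 of the 251 still had an unadjusted p under 0.05 on the same side. Genes no longer tested count as lost here, and fewer KO libraries also lower the power for every gene. A further 23 genes had no count in any WT library; their fitted difference depends on a prior count and is not given.

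**Figure D2:**
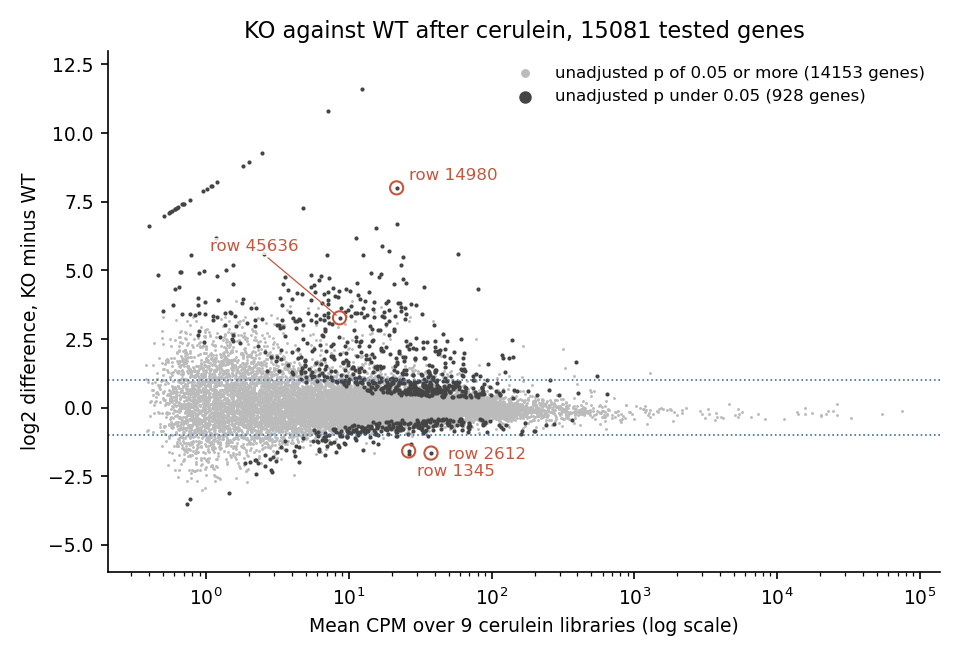
Each point is 1 of the 15081 tested genes: mean CPM over the 9 cerulein libraries (log axis) against the log2 difference KO minus WT. Dark points (928) have an unadjusted p under 0.05, circles mark the named rows, dotted lines mark 2-fold; the slanted line of points at the upper left belongs to the 23 genes without a count in WT, and large differences point upwards more often than downwards.

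All 5 KO libraries lay above all 4 WT libraries for 201 genes (1.33%) and below them for 131 (0.869%). With a mean of at least 5 CPM in the higher group, 131 and 111 remained. The genes given by row are the 2 of smallest unadjusted p on each side. None passed the adjusted test with edgeR or with limma-voom (limma-voom adjusted p = 0.318 to 0.624), while DESeq2 called all 4. The unadjusted limma-voom p was 2.1e-05 for row 1345 and 0.00202 for row 2612. It was 0.0576 for row 45636 and 0.153 for row 14980. They were chosen for small p and for groups that do not overlap. Neither feature is separate evidence, and nor are intervals clear of 0. With the level adjusted over all 15081 genes, interval half-widths were 1.98, 3.06, 5.61 and 17.1 log2 for rows 1345, 2612, 45636 and 14980. All 4 adjusted intervals included 0.

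The gene in row 1345 had the smallest p of all, and its KO libraries lay close together. It stood at 26.4, 44.8, 51.6 and 43.7 CPM in WT replicates 1, 3, 4 and 5. In KO replicates 1 to 5 it stood at 14.9, 15.3, 14.3, 10.2 and 15.2 CPM. KO 4 was the lowest, KO 1 lay among KO 2, 3 and 5, and the lowest WT library was 1. The KO mean was 14.0 ± 2.17 CPM (SD, n = 5). WT averaged 41.6 ± 10.7 CPM (SD, n = 4), which is 2.98-fold higher. The fitted log2 difference was -1.58 (SE 0.24, 95% interval -2.10 to -1.05), with an unadjusted edgeR p of 3.1e-05 and an adjusted edgeR p of 0.468. DESeq2 gave an adjusted p of 6.66e-05. Without KO 1 and KO 4 the difference was -1.48. After PBS, the gene lay at 2.25 to 62.9 CPM in WT and 7.33 to 47.1 CPM in KO, which overlap (log2 difference -0.67, edgeR adjusted p = 0.763; exact permutation p = 0.310). It did not pass the test of a response to cerulein averaged over genotypes (log2 -0.06, edgeR adjusted p = 0.958).

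The gene in row 2612 was lower in KO as well, with a wider spread in WT. Its WT values were 50.4, 107, 55.6 and 29.4 CPM in replicates 1, 3, 4 and 5, and its KO values were 22.8, 19.98, 28.3, 14.4 and 10.9 CPM in replicates 1 to 5. The highest KO library, 3, and the lowest WT library, 5, were almost equal. KO averaged 19.3 ± 6.82 CPM (SD, n = 5) and WT 60.6 ± 33.1 CPM (SD, n = 4), which gave a log2 difference of -1.65 (SE 0.37, 95% interval -2.46 to -0.85; edgeR adjusted p = 0.782, DESeq2 adjusted p = 0.0264). It was -1.22 without WT 3. In PBS libraries the ranges overlapped, at 7.27 to 42.5 CPM in WT and 6.09 to 78.6 CPM in KO.

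The genes in rows 45636 and 14980 were higher in KO, and both rest mainly on KO 1 and KO 4. Row 45636 stood at 1.86, 1.36, 0.856 and 1.77 CPM in WT replicates 1, 3, 4 and 5, and at 35.6, 6.53, 3.42, 20.8 and 5.27 CPM in KO replicates 1 to 5. The means were 14.3 ± 13.8 CPM (SD, n = 5) and 1.46 ± 0.461 CPM (SD, n = 4), a log2 difference of 3.27 (SE 0.68, 95% interval 1.79 to 4.75; edgeR adjusted p = 0.782, DESeq2 adjusted p = 0.00543). For KO 2, 3 and 5 the mean was 5.07 CPM, and the fitted difference without KO 1 and KO 4 was 1.77. After PBS the groups overlapped: WT libraries ran from 0 counts (2 of 5) to 68.6 CPM (WT PBS 4), and KO libraries from 1.88 to 12.7 CPM.

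Row 14980 was close to absent in WT after cerulein. Of the 4 WT libraries only replicate 3 had any count, 6 counts or 0.454 CPM. KO replicates 1 to 5 had 140, 1.38, 3.49, 46.7 and 2.50 CPM. The log2 difference of 8.01 (SE 2.06, 95% interval 3.49 to 12.5; edgeR adjusted p = 0.782, DESeq2 adjusted p = 0.0151) is therefore known only roughly: without WT 3 the WT group holds no count, and it was 4.12 without KO 1 and KO 4. After PBS the gene was present in all 5 WT libraries, at 6.70 to 32.8 CPM, and in 4 of 5 KO libraries, at up to 95.4 CPM. None of the 4 genes passed the test between genotypes after PBS (edgeR adjusted p = 0.702 to 0.979), and none passed the test of the interaction of genotype with treatment (edgeR adjusted p = 0.308 to 0.803).

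**Figure D3:**
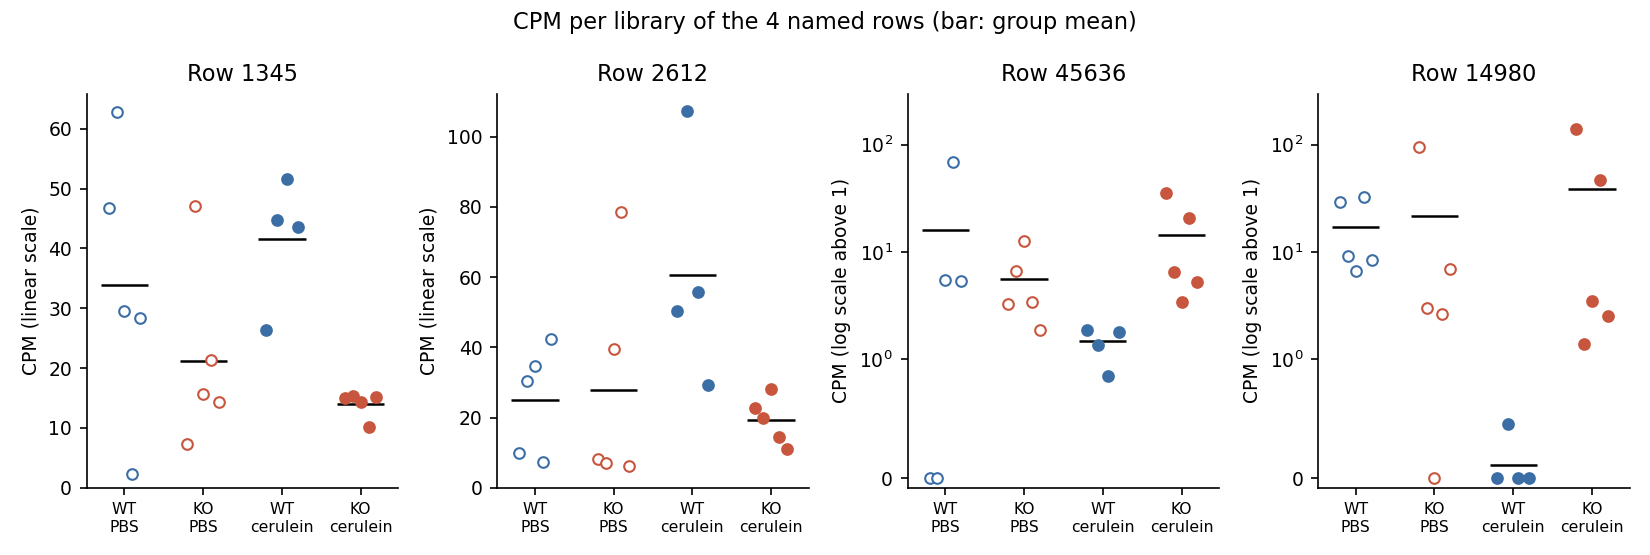
CPM of each library for the 4 named rows (linear axis for rows 1345 and 2612, log axis above 1 CPM for rows 45636 and 14980), in WT (blue) and KO (red) after PBS (open points) and cerulein (filled points); bars are group means. The cerulein groups do not overlap, the PBS groups do, and in rows 45636 and 14980 the 2 highest KO cerulein points are KO 1 and KO 4.

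Since no gene passed, the size of difference that the data exclude was read from the 95% interval of each gene's log2 difference. A gene's interval excludes a 2-fold difference when both bounds lie within -1 and 1. The median half-width was 0.86 log2, or 1.82-fold, so an estimate at equality excluded about that much for a typical gene. Of the 15081 genes, 5766 (38.2%) excluded a 2-fold difference in both directions, 1419 (9.41%) a 1.5-fold, 9396 (62.3%) a 3-fold, 10633 (70.5%) a 4-fold and 12427 (82.4%) an 8-fold one. A KO level 2-fold or more above WT was excluded for 8154 genes (54.1%), and a KO level 2-fold or more below WT for 8990 (59.6%). The estimates themselves were mostly small, with a median of 0.04 and quartiles of -0.25 and 0.39 on the log2 scale, and 13139 (87.1%) lay within 2-fold.

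Each of these intervals covers 1 gene. With the level adjusted over all 15081 genes at once (Bonferroni), the median half-width was 3.28 log2, or 9.69-fold. Then 0 genes excluded a 2-fold difference, 520 a 3-fold, 2007 a 4-fold and 5841 an 8-fold one. A 2-fold difference was thus excluded for 38.2% of genes taken singly and for none of the 15081 once the level covers all of them.

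**Figure D4:**
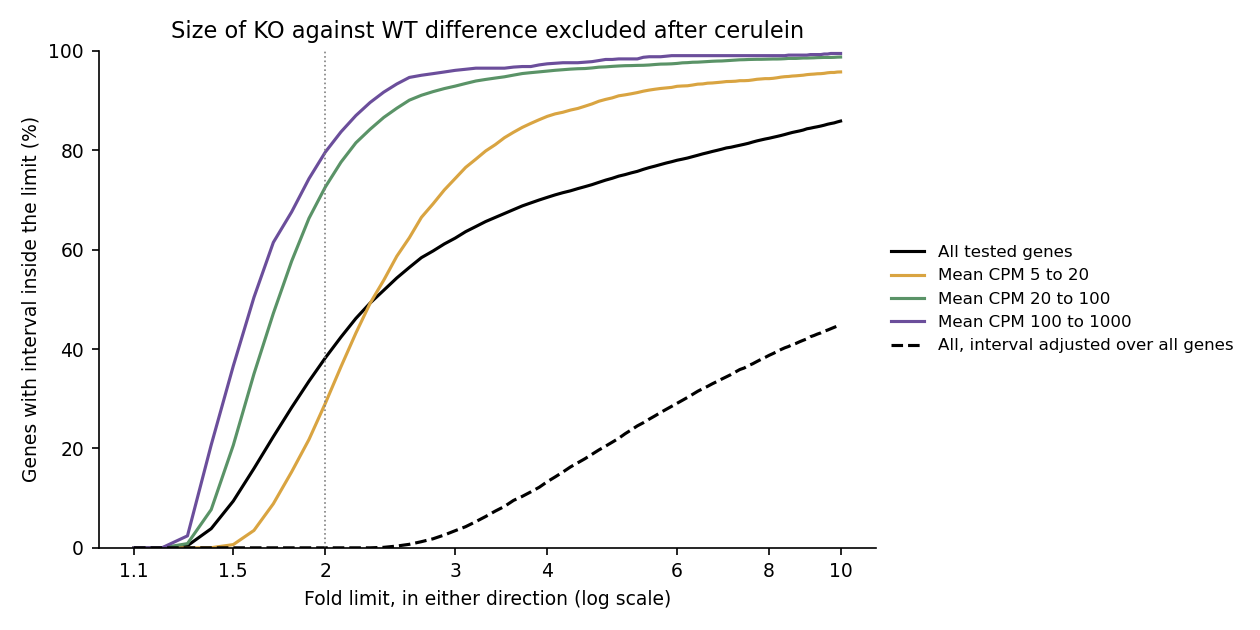
Share of genes whose interval for KO against WT lies inside a fold limit in both directions, plotted against that limit (log axis), for all tested genes and 3 classes of mean CPM (95% intervals) and for all genes with the interval adjusted over all of them (dashed). At the dotted line, a limit of 2, the shares are 38.2% of all genes, 29.1% at 5 to 20 CPM, 72.6% at 20 to 100 CPM and 79.6% at 100 to 1000 CPM, and 0 genes after adjustment.

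Precision rose with abundance up to 1000 CPM and then fell. CPM is not per length, so these classes sort genes by their counts and not by their molecules. Under 1 CPM the median half-width was 3.25 log2 and 0 of 977 genes excluded 2-fold. At 1 to 5 CPM it was 2.10, with 2 of 3469. At 5 to 20 CPM it was 0.88, with 1338 of 4599 (29.1%), and at 20 to 100 CPM 0.54, with 3674 of 5060 (72.6%). The best class was 100 to 1000 CPM, at 0.47, or 1.39-fold, with 727 of 913 (79.6%). Over 1000 CPM it was 0.86 again, and 25 of 63 genes (39.7%) excluded 2-fold.

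In the most abundant genes, this loss of precision moved with KO 1 and KO 4. Of the 100 genes of highest mean CPM, 51 excluded a 2-fold difference with all 9 libraries and 91 did without KO 1 and KO 4; the median half-width went from 0.80 to 0.43. Their median log2 difference went from -0.19 to 0.09. Over all tested genes the gain was small: 6053 of 14301 (42.3%) excluded 2-fold without the pair, at a median half-width of 0.83. Between libraries of a genotype, the SD of log2 CPM had a median over genes of 0.52 for WT and 0.57 for KO, and of 0.43 for KO 2, 3 and 5. A median SD over fewer libraries runs lower, so these values are not strictly comparable.

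The design asks how gene regulation in pancreatitis differs without miR146a, so the genes that respond to cerulein were also described on their own. They were taken as the genes called for cerulein against PBS averaged over both genotypes (edgeR's quasi-likelihood test, all 19 libraries): 1186 rose (7.49% of 15831 tested) and 593 fell (3.75%), with 536 of the latter also tested among the cerulein libraries. The same cerulein libraries enter the choice of these genes and the values below, so the values describe the list and test nothing. The median response was 1.30 log2 in the genes that rose and -1.34 in those that fell.

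Levels of the genes that rose were slightly lower in KO with all libraries and slightly higher without KO 1 and KO 4. The median log2 difference was -0.15 (quartiles -0.34 and 0.01), beside 0.04 over all tested genes, and 882 of the 1186 genes (74.4%) had an estimate below 0, beside 46.6% of all tested genes. None of the 1186 passed the test for genotype. All KO libraries lay above all WT libraries in 2 (0.169%, beside 1.33% of all tested genes) and below in 11 (0.927%, beside 0.869%). Without KO 1 and KO 4 the median was 0.07 (quartiles -0.10 and 0.23), beside 0.00 over all genes. Library by library, the median of these genes relative to the WT mean was -0.60 in KO 1 and -0.64 in KO 4, but -0.03, 0.28 and 0.01 in KO 2, 3 and 5, and -0.15 to 0.20 in the WT libraries. So 2 KO libraries had a lower median over the cerulein-induced genes than any WT library, and the other 3 did not.

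Intervals were narrower in these genes, with a median half-width of 0.61 log2 against 0.86 over all tested genes. The test that chose them favours genes of higher count and smaller spread in these same libraries. A comparison with other genes of equal abundance was not made. A 2-fold difference in both directions was excluded for 759 of 1186 (64.0%), against 38.2% of all tested genes, and a 4-fold one for 1087 (91.7%). A KO level 2-fold or more above WT was excluded for 1066 (89.9%), and one 2-fold or more below WT for 797 (67.2%). Without KO 1 and KO 4 these were 985 (83.3%) and 1020 (86.2%) of 1183 genes, and 902 (76.2%) excluded both. Strong responders were measured less well: of the 323 genes that rose over 4-fold, 40 (12.4%) excluded 2-fold in both directions, with a median difference of -0.33 log2 and a median half-width of 1.01.

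Genes that fell with cerulein lay close to all tested genes. Their median log2 difference was 0.09 (quartiles -0.21 and 0.42), beside 0.04 over all, and it was 0.22 without WT 5. An estimate above 0 was found for 315 of 536 (58.8%), beside 53.4% of all tested genes. None passed the test for genotype. All KO libraries lay above all WT libraries in 11 (2.05%, beside 1.33%) and below in 1 (0.187%, beside 0.869%). Without KO 1 and KO 4 the median was 0.00. Relative to the WT mean, the median over these genes was 0.23, 0.28, -0.15, 0.36 and -0.02 in KO 1 to 5 and -0.12 to 0.19 in WT. KO 2 was thus as high as KO 1 here, while it was near the WT mean for the genes that rose. A 2-fold difference was excluded for 201 of the 536 genes (37.5%) and a 4-fold one for 444 (82.8%).

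**Figure D5:**
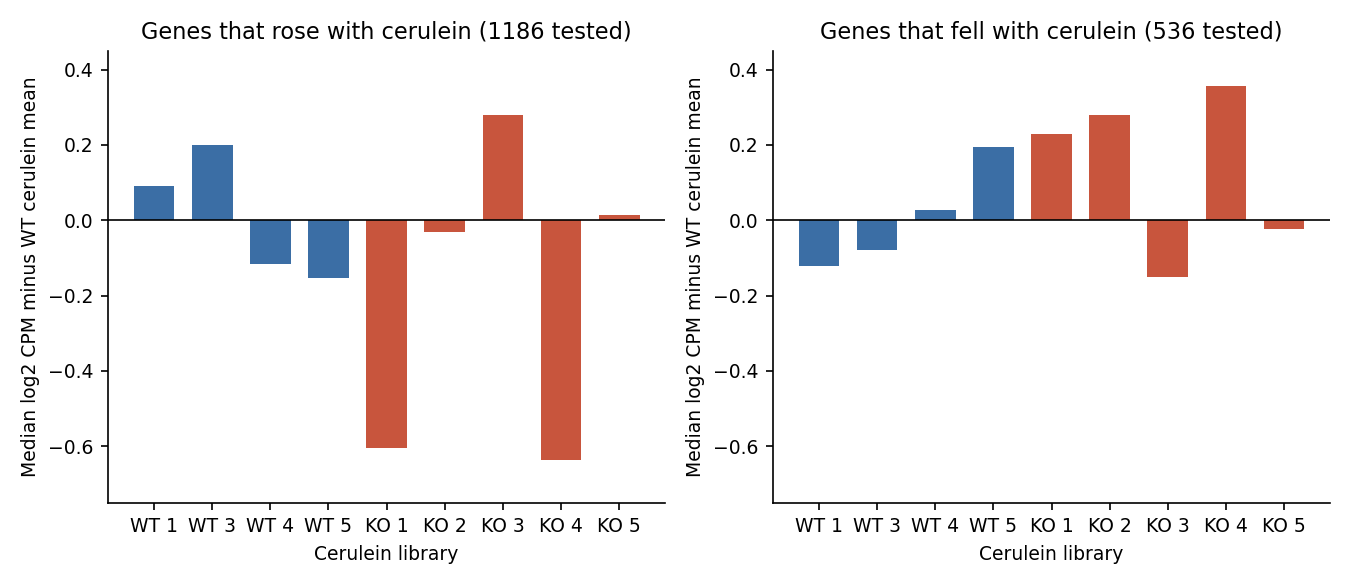
Median over the cerulein-responsive genes of log2 CPM minus the mean of the 4 WT cerulein libraries, 1 bar per library (WT blue, KO red), for the 1186 genes that rose (left) and the 536 that fell and were tested (right). KO 1 and KO 4 reach -0.60 and -0.64 in the genes that rose; the other 3 KO libraries lie within -0.03 to 0.28.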

How the data were processed

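RNA of pancreas was sequenced as stranded polyA libraries in read pairs of 98 bases, per the labels' protocols. The authors deposited raw whole-number counts for 57126 rows and 20 libraries; fastp, STAR and GRCm39 are named in the submitters' processing notes, with no versions, and with counter, strand setting and annotation not given in the sources used here. Overlapping and near-identical genes may therefore share counts. Columns were matched to samples by library name; groups and replicate numbers come from the titles, and nothing says more of the replicates than that they are separate samples, so p-values measure the spread between these samples. The comparison, the gene lists and the tests were chosen with earlier results of these data known.

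The 9 cerulein libraries were fitted alone, because the PBS libraries vary more within a group. After PBS the median SD of log2 CPM over genes was 1.12 in WT and 1.07 in KO. After cerulein it was 0.52 and 0.59, scaled together. Rows were kept by filterByExpr (minimum count 10, total 15), scaled by TMM and tested with edgeR 4.0.16 in R 4.3.3 (quasi-likelihood, 1 mean per group, Benjamini-Hochberg over 15081 genes, threshold 0.05). Intervals are 95% Wald intervals from that model with t quantiles; genes with no count in 1 genotype have none. log2 CPM used a prior count of 2. PBS levels of single rows were scaled with all 19 libraries, so their CPM is not on exactly the scale of the cerulein CPM. Rows given by number are the 2 of smallest unadjusted p in each direction among genes of at least 5 CPM in the higher group whose groups do not overlap. Values per library were compared by exact two-sided permutation tests (scipy 1.17.1). Test and intervals were tested on simulated data. The simulated counts were drawn independently for each gene and library, so deviations shared by KO 1 and KO 4 were not covered. Alternatives were DESeq2 1.42.0, limma 3.58.1, other scalings, filters, depths and sets of libraries. No pair of libraries of 1 group agreed within sampling noise (lowest chi-square per degree of freedom 20.8). Counts carry no molecular identifiers. The intervals cover the spread between libraries of a group as well as counting error.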

Additional observations from a re-analysis of the deposited data

Results flagged for a closer look

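Of 30 groups of values examined, 5 held a library that stood well outside the others. About 1.5 would do so by chance if the values were normal and independent. CPM of rows chosen for their group differences need not be, so the 2 numbers cannot be compared directly. KO cerulein replicate 5 scored 108 on the third component, with the next KO library at 13.4. WT PBS replicate 4 had 68.6 CPM of row 45636, against at most 5.47 in the other 4 of its group. In row 14980, WT cerulein replicate 3 was the only WT cerulein library with a count (0.454 CPM), and KO PBS replicate 1 had 95.4 CPM, against at most 6.96 in the other 4. In row 1345, KO cerulein replicate 4 had 10.2 CPM, with the next at 14.3.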

How the results depend on the processing

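With edgeR and limma-voom the number of genes called stayed at 0 under each setting run, including each library left out in turn (0 to 0); DESeq2 called 18, and 3 without KO replicates 1 and 4 (the latter chosen after seeing the data). The number at an unadjusted p under 0.05 was 2419 of 27107 genes with no filter on low counts, 507 without KO replicates 1 and 4, and 459 to 1408 with each library left out, the lowest without KO 1 (493 without KO 4) and the highest without KO 3. The 5766 genes that exclude 2-fold became 3233 in the fit to all 19 libraries (common biological coefficient of variation 0.761, against 0.577 with 9), 4790 to 5837 with each library left out, 0 with the interval adjusted over all genes, and 1419, 9396, 10633 and 12427 at limits of 1.5, 3, 4 and 8. The median half-width was 1.34 with 19 libraries, 2.84 with no filter, which adds genes of low count, and 0.86 to 1.02 with each library left out. The median difference of all genes was 0.19 without scaling beyond the total count, a shift of the whole distribution, 0.24 with no filter, and 0.02 to 0.07 with each library left out. Relative to that shift the genes that rose stayed lower: without scaling their median was -0.06 and that of the genes that fell 0.29, with 117 of the latter excluding 2-fold. The median of the genes that rose was 0.074 without KO 1 and KO 4 and -0.28 to -0.04 with each library left out; that of the genes that fell was 0.05 to 0.22, the highest without WT 5. Over-4-fold responders alone gave 40 and 6 genes that exclude 2-fold. The difference in rows detected at equal total counts never passed (exact permutation p = 0.0714 to 0.250 with each library left out, and 0.317 from 5 counts up). Row 1345 had an edgeR adjusted p of 0.181 to 0.999 with each library left out. With the replicate block, edgeR called 0 genes, with 597 at an unadjusted p under 0.05. Same-numbered libraries correlated at -0.18 to 0.10 in their deviations. So few values cannot tell whether same-numbered libraries share more than a number. Row 14980 was not tested after thinning. Genes under 5 CPM were measured least precisely: 2 of them excluded a 2-fold difference.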
